A study of Mus musculus with 2 samples.

Results

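Endothelial cells (ECs) of the liver were compared with ECs of the heart in iSuRe-Cre pups. The comparison held 1293 cells, 858 from the liver and 435 from the heart, out of 7705 barcodes of the whole series that passed the same limits on quality and on Cdh5, the gene of VE-cadherin, an adhesion protein of EC junctions. Cells were chosen by their hashtag, an antibody-borne barcode added to each tissue sample before pooling. A cell needed at least 25 UMIs (unique molecular identifiers, each counting 1 captured transcript) of its own hashtag, or 140 for the liver hashtag, and had to stay below the minimum of each of the other hashtags. Apart from Cdh5 and upper limits on mitochondrial and haemoglobin transcripts, no expression value entered the choice.

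The series is 1 pooled 10x Genomics library of liver and heart cells of 3 genotypes of C57BL/6 pups, control, iSuRe-Cre and iSuRe-HadCre, with 1 hashtagged sample per genotype and organ. Pups received 40 mg/kg of 4-hydroxytamoxifen (4-OHT) at postnatal day 3, tissues were taken 3 days later, and the labels give the age as P6-P7. Cells were sorted as CD31+ and MbTomato+, and the series' design text states a sort by the presence or absence of Tomato. How many pups stood behind each hashtag was not stated.

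The driver of recombination was Cdh5-CreERT2, a tamoxifen-inducible Cre under an endothelial promoter. The iSuRe-Cre transgene, once recombined, makes the membrane reporter MbTomato together with a permanent supply of Cre. The iSuRe-HadCre allele, present in the other pair of samples, makes Cre transiently. A floxed Notch1 allele in both iSuRe genotypes is given by the study's account of this experiment and not by the labels, and the alleles of the control pups were not stated. With 1 sample per group there was no spread between animals, so no test was run. All intervals below are exact 95% intervals that cover counting error only.

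ECs take on organ-specific forms. Those lining liver sinusoids are fenestrated, lack a continuous basement membrane and clear waste macromolecules from blood through scavenger receptors, and they send Wnt and BMP signals to hepatocytes. Heart capillary ECs form a continuous lining rich in caveolae and pass fatty acids from blood to cardiomyocytes. The endocardium, another EC type, lines the heart chambers.

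Both groups had the endothelial marker of the sort. Pecam1, the gene of the CD31 protein used in the sort, was at 485 CPM (the UMIs of a gene relative to all UMIs of its group, where 10000 CPM is 1%) in liver and 586 CPM in heart, and a Pecam1 UMI was seen in 88.8% of liver cells and 99.8% of heart cells. Cdh5, which chose the cells and so checks nothing, was at 738 CPM in liver and 975 CPM in heart. The heart cells were deeper, with a median of 16380 UMIs per cell against 8765 in liver, and the 2 groups held 8303637 and 9341120 UMIs in sum.

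The levels of the transgene sequences cannot check the genotype labels, because the alleles of the control pups were not stated. WPRE, a stabilising element in the transgene transcript, was at 105 CPM in iSuRe-Cre liver and 63.5 CPM in iSuRe-Cre heart, below its 160 CPM in free RNA (the summed profile of barcodes of 10 to 100 UMIs, which hold no cell). The cells labelled control had more WPRE, at 396 CPM in liver and 562 CPM in heart. Tomato showed the same order, with 33.8 CPM in iSuRe-Cre liver and 25.5 CPM in iSuRe-Cre heart against 78.5 CPM and 97.7 CPM in control. Cre was at 26.7 CPM in iSuRe-Cre liver and 30.7 CPM in iSuRe-Cre heart, against 9.62 CPM in control liver and 29 CPM in control heart. In heart the 4 transgene sequences summed to 267 CPM in iSuRe-Cre, 761 CPM in control and 1393 CPM in iSuRe-HadCre, and the order was the same in liver. None of the 4 transgene sequences differed 2-fold between iSuRe-Cre liver and heart. Notch1, whose receptor directs arterial fate and limits sprouting, was at 21.4 CPM in iSuRe-Cre liver and 12.6 CPM in iSuRe-Cre heart, against 160 CPM and 138 CPM in control, and free RNA held 19.5 CPM of it.

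Of 10442 genes and transgene sequences with at least 100 UMIs over the 2 groups, 278 were at least 4-fold higher in liver (2.66%) and 102 at least 4-fold higher in heart (0.977%). At the 2-fold level used below for gene lists, 830 were higher in liver (7.95%) and 421 higher in heart (4.03%). The median log2 ratio over all of them, with 10 CPM added to both values, was 0.08. At the 4-fold limit for liver, Mroh1 lay just inside with a ratio of 4.00 and Nuak1 just outside with 3.99, and for heart Btnl9 lay just inside at 4.01-fold and Fabp3 just outside at 3.94-fold. The 15 leading liver genes included the scavenger and lectin genes Stab2, Mrc1, Clec4g and Fcgr2b, the Wnt amplifier Rspo3, the transcription factor Maf and 5 stefin genes of neutrophils, and the leading heart genes included the transcription factors Meox1, Meox2 and Tcf15 and the caveolar gene Cav1.

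**Figure D1:**
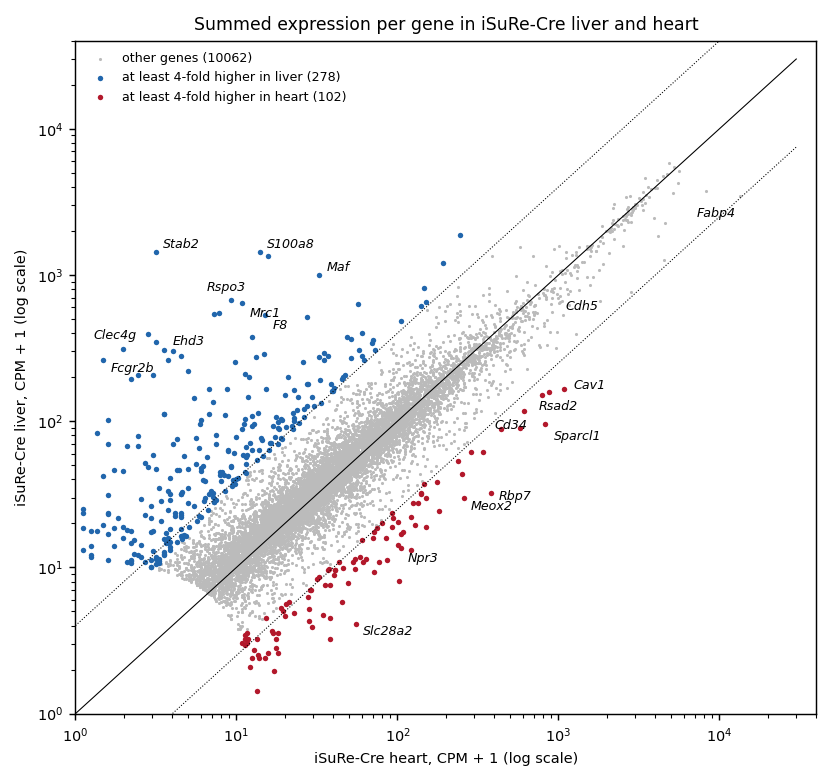
Summed expression of 10442 genes in iSuRe-Cre liver (vertical axis) and iSuRe-Cre heart (horizontal axis), each as CPM + 1 on a log scale, with 1 point per gene. The solid line marks equal levels and the dotted lines 4-fold differences of the plotted values, with 278 genes at least 4-fold higher in liver in blue (Stab2 at 1446 CPM in liver and 2.17 CPM in heart) and 102 at least 4-fold higher in heart in red (Cav1 at 164 and 1084 CPM).

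To show the genes on which the contrast turned, the promoters of 4 leading genes are given, 2 from each organ, as the 300 bases from 250 before to 50 after the RefSeq start on GRCm38.p6, each read 5′ to 3′ on the strand of its gene. Stab2 encodes the hyaluronan clearance receptor stabilin-2 and Mrc1 the mannose receptor. Meox2 encodes a homeobox factor of heart capillary ECs and Rbp7 a retinol-binding protein. Capitals mark letters of 4 motifs, searched on both strands. For factors of the GATA family the letters were AGATAA. For the large family of ETS factors, general to endothelium, they were ACAGGAA. For homeobox factors such as Meox2 they were TAATTA. For factors of the MAF family they were TGCTGAC. Stab2 lies at chr10:87007893-87008192 (minus strand), Mrc1 at chr2:14229164-14229463 (plus strand), Meox2 at chr12:37108290-37108589 (plus strand) and Rbp7 at chr4:149454919-149455218 (minus strand).
Stab2: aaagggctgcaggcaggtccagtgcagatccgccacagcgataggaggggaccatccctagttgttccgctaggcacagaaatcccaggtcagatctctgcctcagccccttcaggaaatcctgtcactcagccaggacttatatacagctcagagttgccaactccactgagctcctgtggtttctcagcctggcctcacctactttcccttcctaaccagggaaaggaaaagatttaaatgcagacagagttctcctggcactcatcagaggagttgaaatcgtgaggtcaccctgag
Mrc1: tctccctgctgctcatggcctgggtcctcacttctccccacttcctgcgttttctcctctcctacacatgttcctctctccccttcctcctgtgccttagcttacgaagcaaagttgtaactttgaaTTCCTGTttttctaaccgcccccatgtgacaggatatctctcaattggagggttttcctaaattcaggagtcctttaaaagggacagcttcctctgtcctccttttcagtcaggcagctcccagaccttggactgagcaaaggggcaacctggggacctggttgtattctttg
Meox2: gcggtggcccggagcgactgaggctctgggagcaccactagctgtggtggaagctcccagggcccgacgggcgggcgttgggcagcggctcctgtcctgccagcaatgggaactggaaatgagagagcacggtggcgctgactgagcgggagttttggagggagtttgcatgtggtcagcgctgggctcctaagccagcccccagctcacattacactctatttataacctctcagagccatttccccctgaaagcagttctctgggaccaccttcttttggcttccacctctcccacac
Rbp7: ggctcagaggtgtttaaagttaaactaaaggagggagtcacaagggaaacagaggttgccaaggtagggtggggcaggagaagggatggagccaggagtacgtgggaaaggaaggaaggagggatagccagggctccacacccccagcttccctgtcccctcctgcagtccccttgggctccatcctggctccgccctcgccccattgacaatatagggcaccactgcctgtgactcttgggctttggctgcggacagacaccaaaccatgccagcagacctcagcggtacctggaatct

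Of the 4 promoters, Mrc1 alone held one of the motifs, the ETS letters on the reverse strand, while the other 3 had no match to these letters in the window. Over all 32851 RefSeq promoters of this length, AGATAA was found in 11.2%, ACAGGAA in 8.67%, TAATTA in 5.29% and TGCTGAC in 4.67%. The 278 promoters of genes at least 4-fold higher in liver held ACAGGAA in 14.4%, against 7.34% of the 109 promoters of genes at least 4-fold higher in heart and 7.20% of the promoters of all genes tested. For AGATAA the shares were 10.1% in liver, 7.34% in heart and 6.06% in all genes tested. For TAATTA they were 1.80%, 0.917% and 2.46% in the same order, so the homeobox letters were not more frequent in heart. For TGCTGAC they were 4.68%, 1.8% and 3.51%. These shares are descriptions of letters in fixed windows, and 216 of the 278 liver genes and 74 of the 102 heart genes had an entry.

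Of the lists of endothelial genes, the scavenger and lectin genes of sinusoidal ECs had the highest median ratio. Of 17 listed genes, 16 were in the data and 13 had 100 UMIs, and of these 10 were at least 2-fold higher in liver, all 10 also past 4-fold, and 0 higher in heart, with a median log2 ratio of 4.16. Stab2 (chr10:86841198-87008025 in GENCODE vM21) was at 1446 CPM in liver and 2.17 CPM in heart, a ratio of 667 (interval 422 to 1126). The ratio was 98.9 under doubled hashtag minimums and 140 under HTODemux. Doubling also raised the limit on other hashtags, so heart cells could hold any number of liver hashtag UMIs below 280. A Stab2 UMI was found in 72% of liver cells (68.9% to 75%) and 3.91% of heart cells, and after thinning each cell to 2000 UMIs, which equalises depth, in 60.2% and 0.46%. Stab2 in heart cells was below the level of free RNA, 223 CPM.

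Receptors for sugars, immune complexes and modified lipoproteins showed the same direction. Mrc1 was at 646 CPM in liver and 9.88 CPM in heart, 65.5-fold higher. Clec4g, a C-type lectin of sinusoidal ECs, was at 308 CPM against 0.963 CPM, and Fcgr2b, the inhibitory Fc receptor that clears immune complexes, at 262 CPM against 0.482 CPM. The heart level of Fcgr2b rested on 4 UMIs, and its ratio of 544 had an interval of 212 to 1997. Lyve1, a hyaluronan receptor, was 32.4-fold higher in liver, and Msr1, a class A scavenger receptor, 54.4-fold. Stab1 was at 304.6 CPM and 56.4 CPM. Dnase1l3, a secreted nuclease, was at 393 CPM in liver and 1.81 CPM in heart. Colec11, Scarb1 and Ctsl were tested and stayed within 2-fold.

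Sinusoidal identity genes outside scavenging were also higher in liver, 12 of 19 tested at 2-fold against 2 in heart. Ehd3, an endocytic recycling protein, was at 304 CPM in liver and 2.53 CPM in heart. F8, coagulation factor VIII, was at 533 CPM and 14.1 CPM, 37.8-fold higher in liver. Gpr182, an atypical chemokine receptor, was 10.3-fold higher in liver and Plxnc1, a semaphorin receptor, 20.6-fold. Oit3, counted among the scavenger and lectin genes, was at 277 CPM in liver and 3.49 CPM in heart.

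Of 11 tested transcription factors tied to sinusoidal ECs, 6 were at least 2-fold higher in liver and 0 in heart. Maf was at 1002 CPM in liver and 31.7 CPM in heart, 31.7-fold higher (28 to 35.9). Gata4, required for sinusoidal differentiation, was at 150 CPM and 19.1 CPM, and Meis2 at 813 CPM and 146 CPM. Tfec, a factor of the MiT family, was at 41.4 CPM in liver and 0.482 CPM in heart. Meis1, Lmo2, Irf8 and Prox1 stayed within 2-fold.

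Of 16 tested liver angiocrine and zonation genes, not all of them signals to hepatocytes, 6 were at least 2-fold higher in liver. From the same list 1 gene, Fabp4, was higher in heart. Rspo3, which amplifies Wnt signalling around central veins, was at 671 CPM in liver and 8.31 CPM in heart, 80.7-fold higher, and had a UMI in 34.6% of liver cells. Under doubled hashtag minimums it was 22.1-fold higher. Wnt2 was at 164 CPM and 5.78 CPM, and Hgf, hepatocyte growth factor, at 57.5 CPM and 2.05 CPM. Bmp2, which controls hepatocyte iron sensing through hepcidin and is not on this list, was at 200.0 CPM in liver and 20 CPM in heart. Within the BMP and TGF-beta list 5 of 23 tested genes were at least 2-fold higher in liver (Bmp2, Smad6, Bmpr2, Bmp4 and Bmper) and 0 in heart, and Bmp6 stayed within 2-fold.

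Venous and large-vessel genes split, with 8 of 16 tested higher in liver and 3 in heart. Selp, P-selectin, was at 135 CPM in liver and 6.14 CPM in heart, and Vwf, von Willebrand factor, at 191 CPM and 32.1 CPM. Nr2f2, a venous transcription factor, was at 610 CPM and 138 CPM. Plvap, which forms the diaphragms of fenestrae and caveolae and is not on this list, was at 277 CPM and 59 CPM. Coagulation genes were higher in liver for 6 of 13 tested, among them Tfpi, an inhibitor of the tissue factor pathway, at 2.70-fold. In the other direction was Plat, tissue plasminogen activator, at 17.8 CPM in liver and 91.9 CPM in heart. Lysosome and endocytosis genes were mostly within 2-fold, with 4 of 26 higher in liver. The adaptor Dab2 was 6.73-fold higher in liver and the protease Lgmn 6.61-fold.

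Of 22 tested heart capillary genes, 14 were at least 2-fold higher in heart and 2 in liver, with a median log2 ratio of -1.59. Meox2 was at 29 CPM in liver and 257 CPM in heart, 8.85-fold higher in heart (7.79 to 10.1). Tcf15, its partner in driving fatty acid uptake, was at 42.6 CPM and 250 CPM. Meox1, not on this list, was at 17.8 CPM and 150 CPM. A Meox2 UMI was found in 72.4% of heart cells and 12.5% of liver cells, or in 32.7% and 4.30% after thinning. Rbp7, a leading heart gene not on this list, was at 31.5 CPM in liver and 381 CPM in heart, 12.1-fold higher (10.7 to 13.7). Ly6c1, a capillary surface antigen with a near-identical neighbour that may share its reads, was at 89.2 CPM and 579 CPM. Slc28a2, a nucleoside transporter, had the largest ratio of the named heart genes, 17.5-fold, at 3.10 CPM in liver and 54.2 CPM in heart.

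Genes for fatty acid handling were higher in heart for 8 of 18 tested and in liver for 0. Fabp4, a fatty acid binding protein, was among the most abundant transcripts in both organs, at 3488 CPM in liver and 13500 CPM in heart, and a Fabp4 UMI was found in 97.8% and 96.1% of cells. Fabp5 was at 767 CPM and 2811 CPM, and Lpl, lipoprotein lipase, at 13.3 CPM and 100 CPM. Cd36, the fatty acid translocase, and Gpihbp1, which anchors lipoprotein lipase to the capillary wall, stayed within 2-fold at 1.81-fold and 1.56-fold higher in heart.

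All 7 caveolar genes were tested and 4 were at least 2-fold higher in heart. Cav1, the coat protein of caveolae, was at 164 CPM in liver and 1084 CPM in heart, 6.62-fold higher. Its UMIs were found in 98.2% of heart cells and 46.5% of liver cells, and after thinning in 81.5% and 20.4%. Ehd2, at the caveolar neck, was 4.72-fold higher in heart, Cav2 2.98-fold and Cavin1 2.72-fold. The liver level of Cav1 was below that of free RNA, 314 CPM.

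Basement membrane and matrix genes were higher in heart for 10 of 19 tested and in liver for 1. Sparcl1 was at 94.8 CPM in liver and 827 CPM in heart, Col15a1 at 16.5 CPM and 107 CPM and Lamb1 at 26.8 CPM and 124 CPM. The main type IV collagen chains were closer, with Col4a1 at 660 CPM and 1817 CPM and Col4a2 at 330 CPM and 848 CPM. Nid1, Hspg2, Agrn and Lama5 stayed within 2-fold. Among surface genes, Cd34 was at 116 CPM in liver and 607 CPM in heart, and 16 of 19 tested junction and surface genes were within 2-fold.

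**Figure D2:**
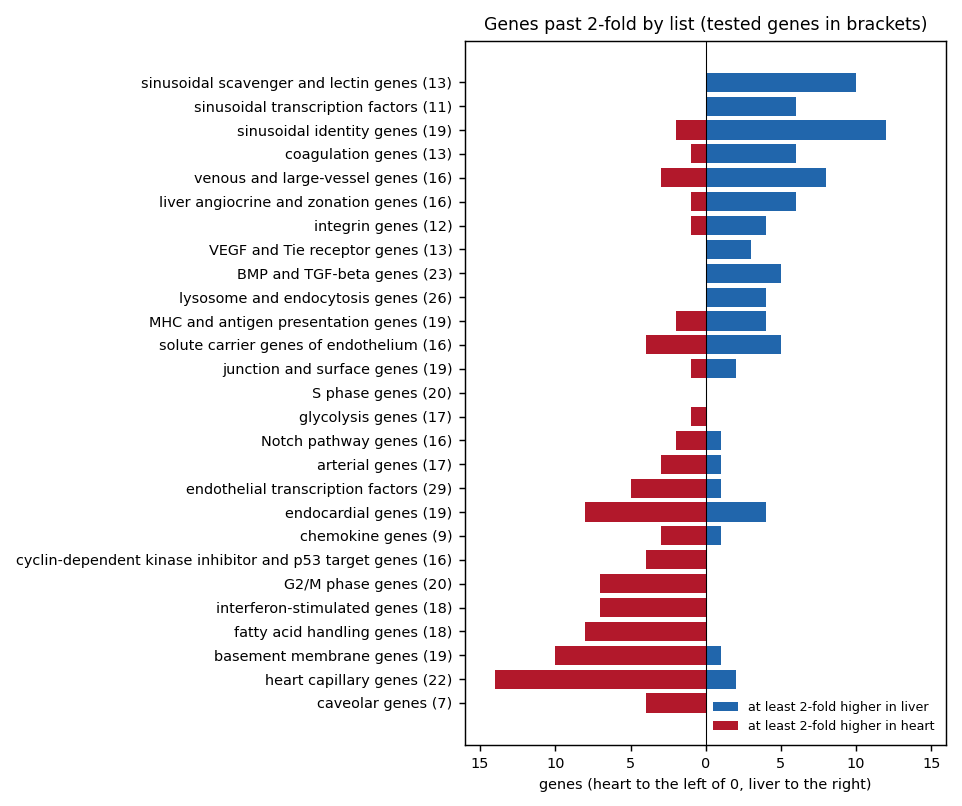
Genes at least 2-fold apart between iSuRe-Cre liver and heart by gene list, with the number of genes tested in brackets. Blue bars to the right of 0 count genes higher in liver and red bars to the left genes higher in heart, such as 10 of 13 scavenger and lectin genes in liver and 14 of 22 heart capillary genes in heart.

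Endocardial genes did not move as a block, with 8 of 19 tested higher in heart and 4 in liver (Vwf, Plvap, Adgrg6 and Fbln2). Npr3, a natriuretic peptide receptor of endocardium, was at 12.6 CPM in liver and 104 CPM in heart, in 14% of heart cells, and 10 cells held 56% of its 862 UMIs there. Wt1 was at 8.24 CPM and 70.2 CPM, and its UMIs were spread over 55.6% of heart cells. Arterial genes were mostly within 2-fold, 13 of 17 tested. Cxcl12, a chemokine of arterial ECs and capillaries, was at 150 CPM in liver and 794 CPM in heart, and Gja5, connexin 40, at 14.8 CPM and 2.77 CPM. In the Notch list Jag2 (9.96 and 35.4 CPM) and Hey1 (4.71 and 12 CPM) were higher in heart, Notch2 (28.6 and 12.2 CPM) was higher in liver, and the other 13 of 16 tested, Dll4 among them, stayed within 2-fold.

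VEGF and angiopoietin receptors were nearer to each other in the 2 organs. Kdr, the main VEGF receptor, was at 771 CPM in liver and 480 CPM in heart, 1.61-fold higher in liver, and Flt1 was 1.81-fold higher. Past 2-fold were Flt4 (VEGFR3) at 206 CPM and 46.4 CPM, the phosphatase Ptprb at 1203 CPM and 191 CPM, and Vegfb at 57.4 CPM and 27.9 CPM, 3 of 13 tested, with 0 in heart. With Cdh5 above 1.5 the count was 5. Of the general endothelial factors, 23 of 29 tested stayed within 2-fold, among them Erg with a ratio of 1.00 (0.93 to 1.08) and Fli1 with 1.07.

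Interferon-stimulated genes were higher in heart for 7 of 18 tested and in liver for 0. Rsad2, an antiviral enzyme, was at 158 CPM in liver and 872 CPM in heart, 5.50-fold higher (5.20 to 5.82). Isg15, a ubiquitin-like modifier, was at 392 CPM and 1280 CPM, and Irf7 at 90.9 CPM and 260 CPM. The interferon-induced chemokine Cxcl9, not on this list, was at 112 CPM and 404 CPM, with 42.2% of its heart UMIs in 10 cells. In control ECs Rsad2 was at 19.2 CPM in liver and 143 CPM in heart, and Isg15 at 136 CPM and 152 CPM.

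Of 16 tested cell cycle inhibitors and p53 targets, 4 were at least 2-fold higher in heart and 0 in liver. Cdkn1a, the p21 inhibitor of cyclin-dependent kinases, was at 228 CPM in liver and 499 CPM in heart, and Gdf15, a stress-induced secreted factor, at 9.85 CPM and 51.7 CPM. Phlda3 was 2.31-fold and Eda2r 2.24-fold higher in heart. In control pups Cdkn1a was at 176 CPM in liver and 161 CPM in heart.

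Cell cycle genes differed by phase. None of 20 S phase genes differed 2-fold, while 7 of 20 G2/M genes were higher in heart and 0 in liver. Mki67 was at 87.9 CPM in liver and 179 CPM in heart, and Cenpf at 87.3 CPM and 240.5 CPM. Cells with over 1% of their UMIs in the G2/M list numbered 46 of 435 in heart and 21 of 858 in liver. The count depended on which cells were admitted, with 16 genes under doubled hashtag minimums, 15 with Cdh5 above 1.5, 2 under HTODemux and 0 where WPRE was required. Free RNA held Mki67 at 156 CPM and Cenpf at 146 CPM.

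Of 17 tested glycolysis genes 1, Pfkp, passed 2-fold (higher in heart). Of 19 tested MHC and antigen presentation genes, 4 were at least 2-fold higher in liver and 2, Cd274 and Psmb8, in heart. The 4 in liver were class II genes and their invariant chain (Cd74 at 41.8 CPM and 6.86 CPM, H2-Aa at 17.9 CPM and 4.10 CPM), but the liver levels of Cd74 and H2-Aa were below those in free RNA and H2-Aa was seen in 3.96% of liver cells. Solute carriers went both ways, 5 of 16 tested in liver and 4 in heart, with Slc39a8, a zinc and manganese carrier, at 110 CPM and 2.53 CPM and Slco2a1, a prostaglandin carrier, at 273 CPM and 31.7 CPM.

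Among the 15 leading liver genes, 5 are known from another kind of cell. Cstdc4, Cstdc5, Stfa2, Stfa2l1 and Stfa3, stefin genes of neutrophils with closely similar copies that may share reads, were 81.8-fold to 160-fold higher in liver, and 10 liver cells held 92.2% to 95% of their UMIs. The 8 neutrophil markers summed to 3510 CPM in liver and 36.1 CPM in heart, with 92.9% of the liver UMIs in 10 cells, and 24 liver cells and 0 heart cells were over 1%. Without cells over 1% of neutrophil or hepatocyte markers, a step chosen after seeing the data, 240 genes were at least 4-fold higher in liver and 106 in heart. Of the 278 liver genes 230 remained, and Stfa3 fell to 1.75-fold. Stab2 and Rspo3 had 6.53% and 19.8% of their liver UMIs in 10 cells.

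Markers of other cell types were also present. The 15 macrophage and Kupffer cell markers summed to 635 CPM in liver and 118 CPM in heart, with 7 liver cells over 1%, and the 11 erythroid markers in the data to 3390 CPM and 1176 CPM, with 97 and 2 cells over 1%. Hepatocyte markers summed to 995 CPM in liver and 1160 CPM in heart, against 7922 CPM in free RNA. In liver 10 cells held 58.4% of these UMIs and 20 cells were over 1%. In heart 10 cells held 91.6% and 2 cells were over 1%. Cardiomyocyte markers summed to 79.2 CPM in liver and 120 CPM in heart, and lymphocyte markers to 18.3 CPM and 2.41 CPM. Of the hepatocyte and cardiomyocyte markers, Apoc3, Mup3 and Cps1 were at 0 in heart, and Mup3 and Nppb in liver. The part of other cells and of free RNA in the genes named above was not tested beyond these values.

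The liver cells were not uniform. The share of a cell's UMIs in the 16 scavenger and lectin genes had a median of 0.41% in liver, with cells from 0 to 2.84%, and 0.06% in heart. In 406 of 858 liver cells, or 47.3% (43.9% to 50.7%), the share was above the highest heart cell, 0.48%. The remaining liver cells overlapped with heart cells on this measure.

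Low shares were more frequent among liver cells near the hashtag minimum. Of 219 liver cells with 140 to 199 hashtag UMIs, 51.6% had a Stab2 UMI (44.8% to 58.4%), against 85.6% of 195 cells with 1000 or more (79.9% to 90.2%). Stab2 stood at 528 CPM in the former and 1810 CPM in the latter, while Cxcl12 stood at 432 CPM and 67.2 CPM and Cav1 at 262 CPM and 106 CPM. The liver hashtag had a high background, with a median of 28 UMIs over all barcodes past the quality limits against 1 to 3 for the other 5. Whether cells of other samples entered the liver group near its minimum was not tested. With a liver minimum of 400, chosen after seeing the data, 436 liver cells gave 249 genes at least 4-fold higher in liver and 130 in heart.

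**Figure D3:**
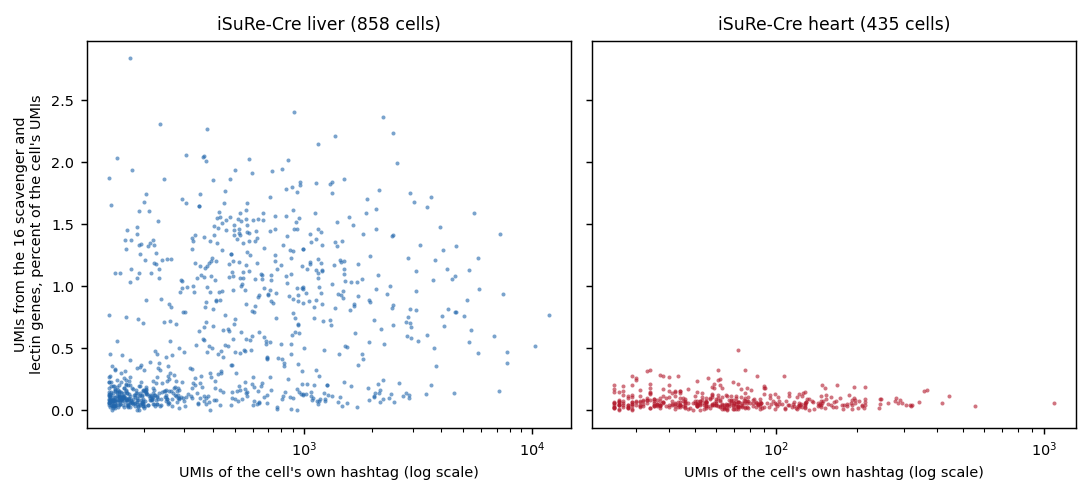
Share of each cell's UMIs in the 16 scavenger and lectin genes (vertical axis, percent) against the UMIs of the cell's own hashtag (horizontal axis, log scale), with 1 point per cell, for iSuRe-Cre liver on the left and iSuRe-Cre heart on the right. Heart cells stay at or below 0.48%, and liver cells run from 0 to 2.84%, with low shares densest near the minimum of 140.

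The liver cells were cut into 3 bins of 286 by this share, which orders them along a range and defines no cell type, since 55 and 66 cells lay within 10% of the 2 bounds. Stab2 and Mrc1 entered the ordering, so their rise is no finding. Among genes that did not, Kdr was at 311, 641 and 1566 CPM in the lowest, middle and highest bin, and F8 at 135, 463 and 1154 CPM. Rspo3 ran the other way, at 1384, 490 and 30 CPM, as did Vwf at 336, 170 and 35.3 CPM and Cav1 at 317, 99.2 and 64.8 CPM. Wnt2 changed less, at 141, 156 and 209 CPM. The hepatocyte genes Afp, at 483, 52.9 and 21.8 CPM, and Alb, at 217, 31.7 and 36.5 CPM, moved with the bins, as did the median hashtag count, at 199, 448.5 and 629 UMIs. Of the hepatocyte marker UMIs in liver, 58.4% lay in 10 cells, and 20 liver cells were over 1%. The part of hepatocyte RNA and of the hashtag count in the other trends was not tested. Rspo3 was therefore highest in the bin where Stab2 was lowest. In the highest bin Sparcl1 was at 27.9 CPM and Meox2 at 1.64 CPM, against 179 CPM and 52.1 CPM in the lowest bin and 827 CPM and 257 CPM in heart.

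**Figure D4:**
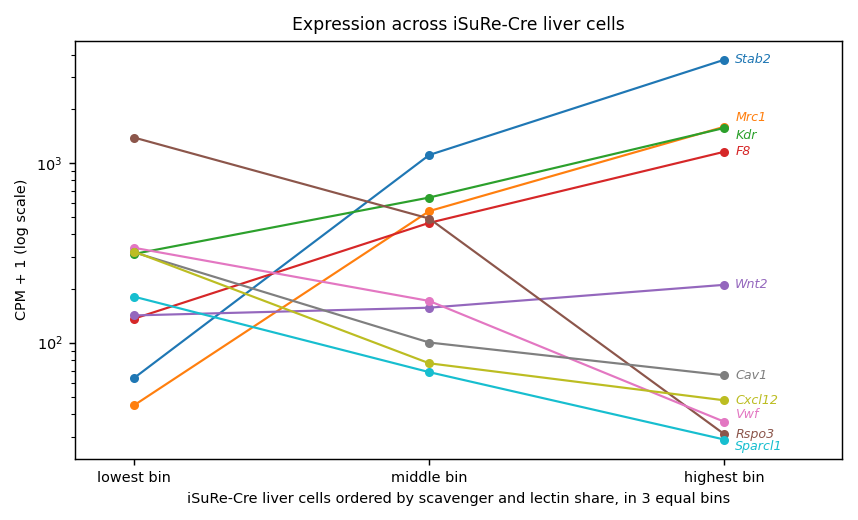
CPM + 1 on a log scale (vertical axis) of 10 genes in the lowest, middle and highest bin of iSuRe-Cre liver cells by scavenger and lectin share, 286 cells each, with lines joining the values of a gene. Stab2 and Mrc1 were used to order the cells, while Rspo3 goes from 1384 to 30 CPM and Kdr from 311 to 1566 CPM.

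The same contrast was read in the other 2 genotypes, whose samples the iSuRe-Cre ratios did not use, although all 6 samples shared 1 library and its free RNA. Liver cells were few there, 54 in control and 76 in iSuRe-HadCre, against 254 and 311 heart cells. Of the 278 liver genes, 247 were higher in liver in control and 224 in iSuRe-HadCre, 199 and 163 of them by 2-fold or more. Over all genes tested, 58.8% were higher in liver at any fold in control and 49.6% in iSuRe-HadCre. Over all genes tested 9.83% were at least 2-fold higher in control liver and 5.34% in iSuRe-HadCre liver. Of the 102 heart genes, 89 were higher in heart in control and 91 in iSuRe-HadCre, 58 by 2-fold or more in each. Over all genes tested, 41.2% and 50.4% were higher in heart at any fold, and 4.64% and 5.87% by 2-fold or more.

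The size of the contrast differed among the genotypes more for Stab2 than for Rspo3. Stab2 was 3.08-fold higher in liver in control (30.5 CPM against 9.90 CPM) and 66.6-fold in iSuRe-HadCre (387 CPM against 5.80 CPM), against 667-fold in iSuRe-Cre. Rspo3 was 59.8-fold and 39.8-fold higher in liver, against 80.7-fold. Control liver cells had Stab2 below free RNA and no Dnase1l3 UMI. Among heart genes Meox2 was higher in heart in all 3 genotypes, at 404 CPM in control and 337 CPM in iSuRe-HadCre, with 81.7 CPM and 77.6 CPM in liver. Cav1 was at 569 CPM in control liver and 612 CPM in iSuRe-HadCre liver, against 164 CPM in iSuRe-Cre liver. These differences between genotypes were not tested, and the make-up of the liver samples and the genotype cannot be told apart.

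By list and at any fold, to be read against the shares just given for all genes tested, the 10 scavenger and lectin genes were higher in liver in iSuRe-HadCre, and 9 in control, where Dnase1l3 gave no ratio. The 14 heart capillary genes were higher in heart in control, 13 in iSuRe-HadCre, and the 8 fatty acid handling genes, 7 interferon-stimulated genes and 4 caveolar genes in both. By 2-fold these were 13 and 10 capillary, 7 and 5 fatty acid, 4 and 3 interferon and 2 and 1 caveolar genes. Of the 8 endocardial genes of heart, 6 and 5 were higher there, and of the 3 venous and large-vessel genes 1 and 0. Of the 4 cell cycle inhibitors and p53 targets, 2 and 3 were. Of the 10 basement membrane genes, 10 and 9 were higher in heart, but 2 and 3 by 2-fold. Of the 7 G2/M genes, 6 were higher in liver in control, while 6 were higher in heart in iSuRe-HadCre. In control liver 10 cells held 87.7% of the UMIs of the whole G2/M list.

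**Figure D5:**
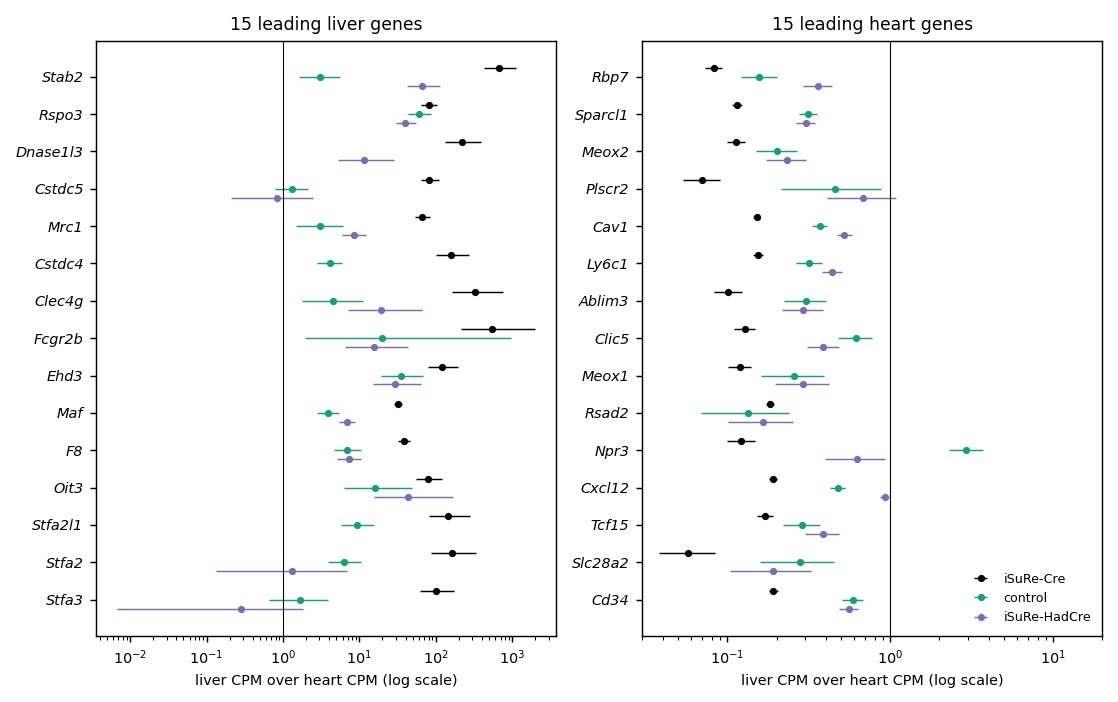
Liver CPM over heart CPM (log scale) of the 15 leading liver genes (left) and 15 leading heart genes (right) in iSuRe-Cre (black), control (green) and iSuRe-HadCre (purple), with exact 95% counting intervals as bars and genes without UMIs in an organ left out. The 15 heart genes lie left of 1 in each genotype except Npr3, which was 2.91-fold higher in control liver.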

How the data were processed

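Liver and heart ECs were pooled in 1 10x Genomics library with hashtags. The deposited values are raw UMI counts, unfiltered, which the authors made with Cell Ranger 7.1.0 (GRCm38, transgenes included). Another 7 features, hashtags or multiplexing tags that the labels tie to no group, were set aside. Barcodes were kept with 2000 to 75000 gene UMIs, over 500 genes, mitochondrial and haemoglobin shares below 5% each and Cdh5 above 0.9 (natural log of 1 plus 10000 times its share). The study's limit on WPRE was run only as an alternative. Of the 7705 barcodes past these limits, 5586 passed no hashtag minimum and were given no group, and 1988 passed exactly 1. Barcodes past 2 or more hashtag minimums, 131 in all, were left out as doublets, and no doublet caller was run. The UMIs of a group's cells were added up and scaled to CPM. Ratios have exact conditional intervals and shares Clopper-Pearson intervals. The floor was 3 counts over a group.

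Named genes were the 15 highest and 15 lowest log2 ratios (10 CPM added) among genes with 100 UMIs whose higher level was at least 2 times that in free RNA, other cell type markers excepted, and up to 6 genes per list past 2-fold. Others, among them genes within 2-fold, were chosen after their values were seen. The members and lists were chosen with earlier results of these data known. Alternatives covered hashtag and cell limits, HTODemux (Seurat 5.3.0), scaling, thinning, free RNA and gene filters. Calls were checked on simulated group sums with counting error only. That check has no spread between cells and does not cover genes whose UMIs lie in few cells. Python 3.11.15 and R 4.3.3 were used. RefSeq promoters (GRCm38.p6) matched 11 of 15 liver and 10 of 15 heart genes, and gene positions are from GENCODE vM21.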

Additional observations from a re-analysis of the deposited data

Results flagged for a closer look

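Of 126 named genes, 8 differences went one way in iSuRe-Cre and the other way in another genotype with both counting intervals excluding a ratio of 1. None of these differences between genotypes was tested. Npr3 was 8.22-fold higher in heart in iSuRe-Cre and 2.91-fold higher in liver in control (2.27 to 3.72). The control liver group, 54 cells with or without Npr3, held 108 Npr3 UMIs, at 173 CPM. Ccl2, a monocyte-attracting chemokine, was 2.80-fold higher in heart in iSuRe-Cre and 10.4-fold higher in liver in iSuRe-HadCre, on 16 and 7 UMIs (4.04 to 29.8).

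Of the G2/M genes, 5 were higher in heart in iSuRe-Cre and higher in liver in control. The control ratios of liver over heart were 1.33 for Cenpf (1.00 to 1.76), 1.87 for Cenpe, 1.82 for Ccnb2, 1.94 for Cdc20 and 1.89 for Mki67 (1.44 to 2.45). Mki67 was at 128 CPM in control liver and 68 CPM in control heart, both below its level in free RNA. In control liver 10 cells held 87.7% of the UMIs of the G2/M list, and 2 cells were over 1%. The counting intervals do not cover such concentration in few cells. Slc40a1, the iron exporter ferroportin, was 8.54-fold higher in liver in iSuRe-Cre and had a ratio of 0.128 in control on 1 liver UMI and 38 heart UMIs (0.0032 to 0.756).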

How the results depend on the processing

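Genes at least 4-fold higher numbered 278 in liver and 102 in heart. The counts were 184 and 59 where WPRE above 0.5 was required, 142 and 47 with cells thinned to 2000 UMIs (4734 genes tested), 495 and 163 with free RNA subtracted (at shares of 11.2% in liver and 14.6% in heart, the latter from hepatocyte markers of which 91.6% of UMIs lay in 10 cells and therefore too high), 570 and 173 with genes of at least 20 UMIs, and 826 and 272 with no gene filter. The free RNA share of 11.2% in liver was also too high. That part of the 57150 CPM of erythroid markers in free RNA exceeds their 3390 CPM in liver. Without the Cdh5 criterion 449 were higher in liver, and 217 of the 278 remained. HTODemux gave 193 and 88. The study required WPRE above 0.5, and the main cell choice here did not. That requirement kept 379 liver and 145 heart cells, with 7971 genes tested. The counts of scavenger, capillary, caveolar, basement membrane and interferon genes past 2-fold stayed within 1.5 times under every alternative run. The VEGF and Tie receptor genes past 2-fold in liver, 3 as reported, numbered 2 to 5, and the G2/M genes past 2-fold in heart, 7 as reported, 0 to 16.

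Of 816 ratios of 48 genes under 17 alternatives, 522 stayed within the counting interval of the reported value, and 294 moved outside it. The ratio of Sv40-pA, 0.936 with an interval spanning 1, went to 1.099 under doubled hashtag minimums and 1.14 without the Cdh5 criterion, and no ratio whose interval excluded 1 changed sides. Of 144 under the 3 alternatives chosen after seeing the data, 91 stayed within it. Among the leading liver genes the folds of Cstdc4, Cstdc5, Stfa2 and Stfa3 fell below 4 under some alternative (Stfa3 to 1.75), and the leading heart genes stayed at 4.08-fold or more. Stab2 ranged from 98.9-fold under doubled hashtag minimums to 3807-fold with free RNA subtracted, and Rspo3 from 22.1-fold to 1779-fold under the same alternatives. The subtraction left neither gene a heart UMI, so the floor of 3 counts was used and both upper values are bounds. The cause of the lower values was not tested. No paired analysis was possible because each group has 1 hashtagged sample. Depth limits the ratios of genes near 0 in an organ, and no spread between pups can be given.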
